A study of Mus musculus with 32 samples.

Results

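The day-by-defeat interaction in adolescent mice asks how much a difference between defeated and control animals at day 21 departs from the same difference at day 1. It was taken as defeat minus control at day 21, less defeat minus control at day 1, over 16 of the series' 32 libraries. A negative interaction on the log2 scale therefore means that a gene stood higher in defeated animals, relative to their controls, at day 1 than at day 21. The samples were polyadenylated RNA from the basolateral amygdala of adolescent mice, per the design text, and the sample labels say only brain tissue. There were 4 libraries in each of 4 groups: social defeat stress at day 21, control at day 21, social defeat stress at day 1 and control at day 1. Social defeat is a procedure in which a mouse is repeatedly overpowered by an aggressive opponent. No genotype, strain or drug is given for any group. Ages of 6 and 9 weeks appear in the design text, which does not assign them to adolescents or adults. What happened on the day from which days 1 and 21 are counted is not stated either. Libraries of the 2 days are separate, so any difference in age or collection between them cannot be told apart from day.

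Library totals were 54380085 to 71137129 counts in defeated day 21, 64257078 to 67691052 in control day 21, 60337686 to 82208892 in defeated day 1 and 65847449 to 77533246 in control day 1. Markers of pallial excitatory neurons, the principal cells of the basolateral amygdala, averaged 5.59 to 6.06 log2 CPM (read counts after scaling every library to the same depth) in the 16 libraries, so they were present throughout. Markers of the neighbouring striatum and central amygdala were present too, at 6.04 to 6.82 log2 CPM. Transthyretin (Ttr), the most abundant choroid plexus transcript of the forebrain, set libraries apart. It stood at 813 to 1220 CPM in all 4 defeated day 1 libraries. Elsewhere it exceeded 100 CPM only in defeated day 21 replicate 1 (622 CPM), control day 21 replicate 1 (640 CPM) and control day 1 replicate 3 (982 CPM). The labels do not say that the libraries of a group came from separate animals, so every p-value here measures the spread between these samples. These are bulk samples, in which fewer cells of a type and less RNA per cell cannot be told apart.

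Glucocorticoids, released from the adrenal gland under stress, enter the brain and bind the glucocorticoid receptor (Nr3c1), which moves to the nucleus and switches on a known set of target genes in neurons, astrocytes and vessels. Among them are Fkbp5, a co-chaperone that dampens the receptor, Tsc22d3, which encodes the anti-inflammatory protein GILZ, and the kinase gene Sgk1. The circadian clock is a transcriptional loop in which Bmal1 and Clock bind E-box sequences and drive their own repressors, the period and cryptochrome genes. The same loop drives output factors such as Dbp and Tef, and Per1 is a target of the glucocorticoid receptor as well. Glucocorticoid release itself follows a daily rhythm.

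Only 1 gene, Map3k6, passed the threshold for the interaction, which does not show that the other genes were unchanged. Map3k6 encodes a kinase of the stress-activated mitogen-activated protein kinase cascade, and its Ensembl gene ENSMUSG00000028862 lies on the plus strand of chromosome 4 at 132968129 to 132980240 in the deposited table, whose build is not named. It was measured at 2.94, 2.95, 3.61 and 2.87 CPM in defeated day 21 libraries and at 3.92, 4.84, 4.54 and 4.95 CPM in control day 21 libraries. On day 1 the level was 6.55, 4.10, 4.73 and 6.59 CPM in defeated libraries and 2.68, 3.03, 2.49 and 2.81 CPM in control libraries. Every defeated library thus lay above every control at day 1, and every defeated library lay below every control at day 21. The interaction was -1.56 ± 0.26 on the log2 scale (SE, 95% interval -2.09 to -1.02, n = 4 per group; adjusted p = 0.0454 with edgeR's quasi-likelihood test with Benjamini-Hochberg adjustment). This was 1 call among 23778 genes tested, or 0.00421% of them.

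From day 1 to day 21 Map3k6 differed by -0.83 ± 0.19 (SE) in defeated animals (adjusted p = 0.0309 with edgeR's quasi-likelihood test with Benjamini-Hochberg adjustment) and by 0.73 ± 0.19 in controls (adjusted p = 0.0512 by the same test). The counts behind the gene ran between 160 and 239 reads in defeated day 21, 252 and 325 in control day 21, 293 and 452 in defeated day 1 and 182 and 210 in control day 1. The call depended on single libraries. Leaving out a single library gave an adjusted p between 0.00866 and 0.211 in edgeR's quasi-likelihood test, with the interaction between -1.68 and -1.46. It stayed below 0.05 only without control day 21 replicate 1 (0.0464), defeated day 1 replicate 2 (0.00866), defeated day 1 replicate 3 (0.0363) or defeated day 21 replicate 3 (0.0492). Without replicates 1, 2, 3 or 4 of control day 1 it was 0.0966, 0.0761, 0.176 and 0.0509, without replicates 2, 3 or 4 of control day 21 it was 0.0883, 0.112 and 0.162, without replicates 1 or 4 of defeated day 1 it was 0.104 and 0.211, and without replicates 1, 2 or 4 of defeated day 21 it was 0.139, 0.0845 and 0.116. Map3k6 was highest in defeated day 1, the group in which all 4 libraries were high in Ttr, while in the control day 1 library with 982 CPM of Ttr it was at 2.49 CPM. With a choroid plexus score in the model its interaction was -1.56, with an adjusted p of 0.102 in edgeR's quasi-likelihood test. With endothelial, meningeal and red cell scores added it was -1.45, with an adjusted p of 0.0488 by the same test.

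**Figure D1:**
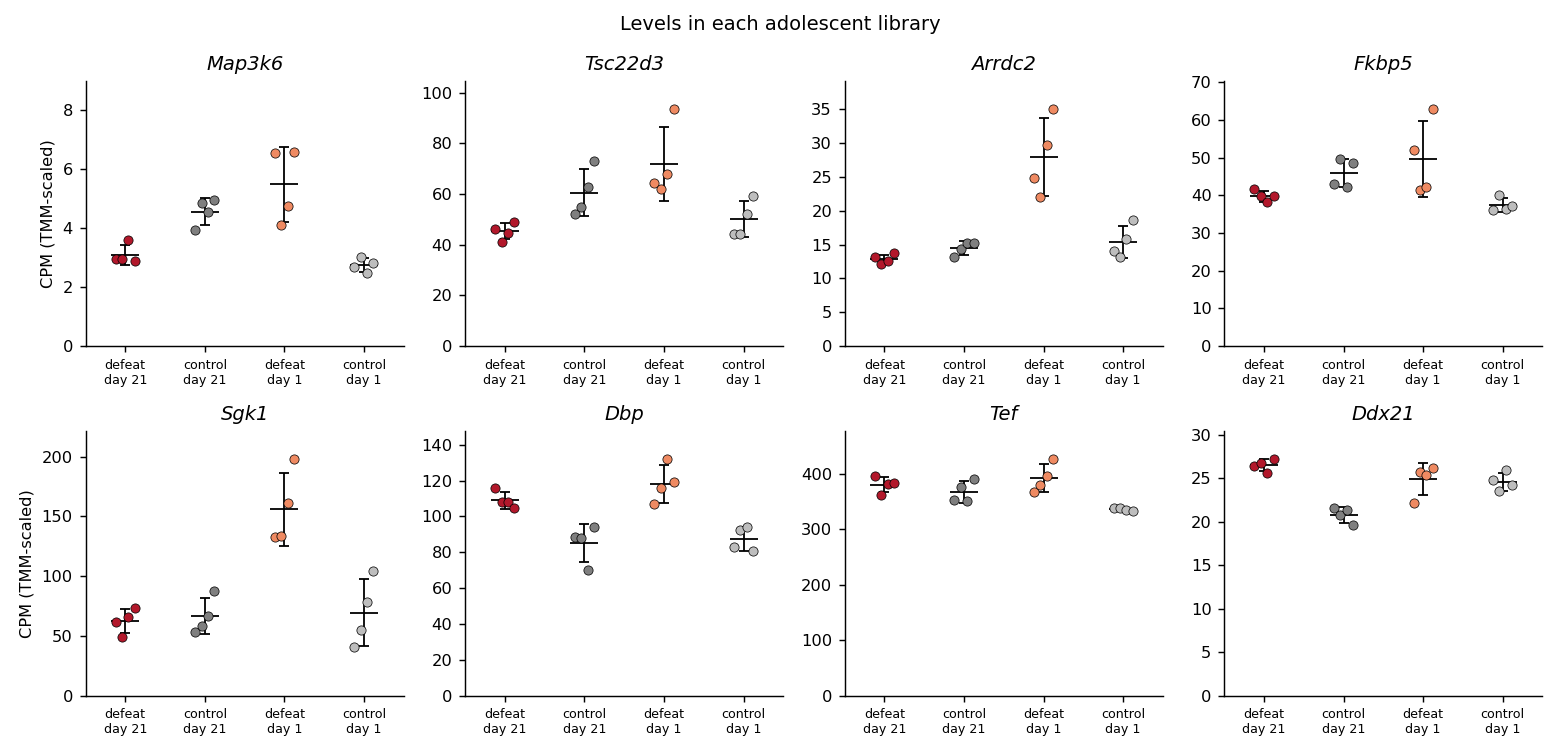
Level of 8 genes in each library (y axis, CPM on a linear scale), with defeated and control libraries at day 21 and then at day 1. Points are libraries, and bars mark the group mean ± SD (n = 4). For Map3k6, Tsc22d3 and Fkbp5 the defeated libraries lie above all controls at day 1 and below all controls at day 21, while Dbp lies above at both days.

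Behind Map3k6, the genes with the smallest interaction p-values did not pass the threshold, and their values are given as such. Tsc22d3 (ENSMUSG00000031431, minus strand of chromosome X at 139440277 to 139501408 in the table) stood at 46.3, 41.2, 44.6 and 48.9 CPM in defeated day 21 and at 52.0, 54.9, 62.6 and 72.9 CPM in control day 21. The day 1 values were 64.4, 61.8, 67.9 and 93.4 CPM in defeated libraries and 44.4, 44.4, 52.0 and 59.2 CPM in controls. The groups did not overlap at either day and changed places between them. Its interaction was -0.94 ± 0.17 (SE, 95% interval -1.3 to -0.59, adjusted p = 0.0896 with edgeR's quasi-likelihood test with Benjamini-Hochberg adjustment). With single libraries left out that adjusted p lay between 0.0185 and 0.34. It was below 0.05 without defeated day 1 replicate 2 (0.0185) or control day 21 replicate 1 (0.0469), and it was highest without defeated day 1 replicate 4 (0.34), control day 1 replicate 2 (0.31) and control day 21 replicate 4 (0.301).

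Arrdc2, an arrestin domain gene, showed a different form. It was at 13.2, 12.2, 12.6 and 13.7 CPM in defeated day 21 and at 13.1, 14.3, 15.2 and 15.3 CPM in control day 21. The day 1 libraries held 24.8, 22.0, 29.8 and 35.0 CPM after defeat and 14.0, 13.2, 15.8 and 18.6 CPM in controls. Only the defeated day 1 group stood apart, and the day 21 groups overlapped. The lipid droplet gene Plin4 had 7.71, 5.90, 2.52 and 4.02 CPM in defeated day 21 against 11.9, 14.2, 13.5 and 18.4 CPM in control day 21. On day 1 Plin4 had 21.4, 4.14, 9.75 and 30.5 CPM after defeat, which overlapped the 9.34, 6.16, 3.33 and 3.78 CPM of the controls. Its separation therefore lay at day 21, where every defeated library was below every control. The sulfotransferase gene Sult1a1 had the same form: 5.32 to 6.72 CPM in defeated day 21 against 7.99 to 9.75 CPM in control day 21, and 7.29 to 19.8 CPM in defeated day 1 overlapping 6.69 to 7.57 CPM in control day 1. The interactions were -1.02 ± 0.20 for Arrdc2, -3.06 ± 0.61 for Plin4 and -1.37 ± 0.28 for Sult1a1, with an adjusted p of 0.132 each in edgeR's quasi-likelihood test.

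At the same adjusted p of 0.132 (edgeR's quasi-likelihood test) were the Wnt receptor gene Fzd2 (-0.75 ± 0.15) and the copper oxidase gene Heph, known for iron export (-0.71 ± 0.15). The 10 negative interactions with the smallest p ended with the adiponectin receptor gene Adipor2 (-0.53 ± 0.12), the cholesterol esterification gene Soat1 (-0.31 ± 0.07) and the tight junction gene Cgn (-0.70 ± 0.16). The glucocorticoid target Hif3a, a hypoxia-related transcription factor gene, had -1.63 ± 0.38. Adjusted p of these 4 lay between 0.256 and 0.279 in edgeR's quasi-likelihood test. Without defeated day 1 replicate 2 alone, 8 genes passed: Map3k6, Plin4, Sult1a1, Heph, Tsc22d3, Arrdc2, Adipor2 and Fzd2. That library had the lowest level of its group for 17 of the 24 glucocorticoid targets. DESeq2 called 17 genes, 15 of them lower, and these included the same 8.

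The same question read from the day 1 side was whether a gene that differed after defeat at day 1 still did so at day 21. The day 21 libraries are separate from those used to choose the genes, so the day 21 levels and log2 changes are an independent reading. Their intervals and p-values also use a spread estimated over all 32 libraries, the day 1 ones included, so these are not fully independent. The day 1 values below chose the genes and are given as a description. At day 1, 13 genes passed (0.0547% of those tested with edgeR's quasi-likelihood test), 10 higher and 3 lower after defeat. Leaving out defeated replicate 2 gave 37 calls and leaving out replicate 3 gave 8, while without defeated replicate 1 or control replicate 4 there was 1 and without any other day 1 library there were 0. At day 21, 8 of the 13 had the same sign, 5 of the 10 higher genes and all 3 lower ones. The median effect in the direction of day 1 was 0.06 on the log2 scale at day 21, against 0.67 at day 1. The 95% interval of the day 21 effect included 0 for 10 of the 13 genes, and for 12 it did not include the day 1 estimate. That second count takes the day 1 estimate without its error, although the same estimates chose the genes and are on average too large.

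**Figure D2:**
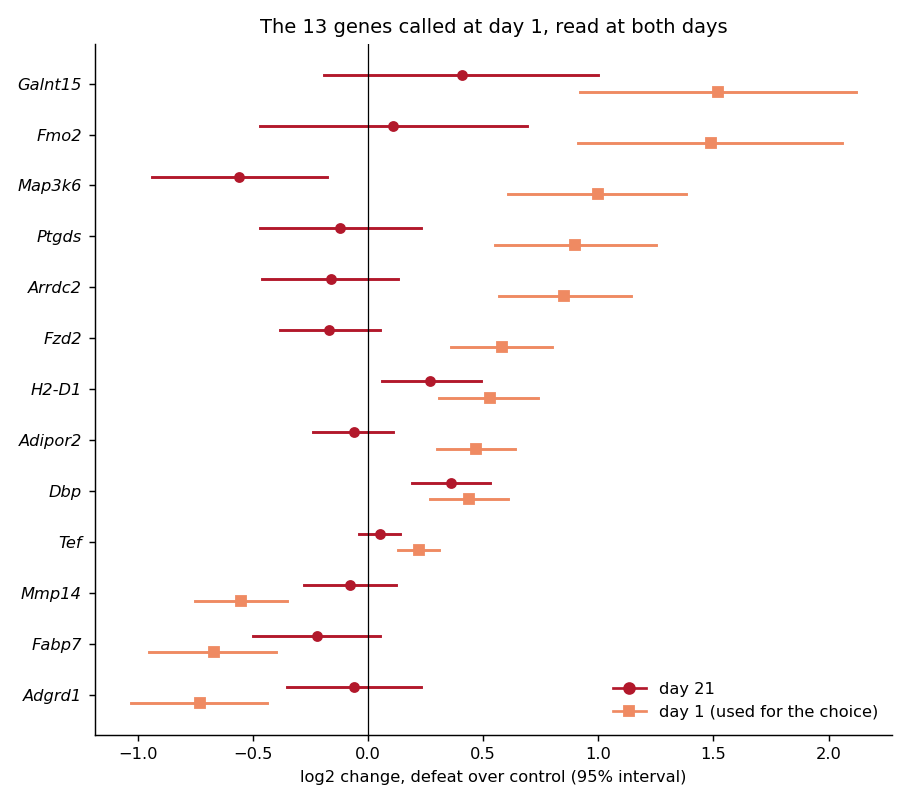
Effect of defeat (x axis, log2 change, defeated minus control) at day 21 and at day 1 for the 13 genes that passed at day 1, with 95% intervals. Most day 21 estimates sit near 0, Dbp sits at 0.36 and Map3k6 sits at -0.56.

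Dbp, a clock output transcription factor, was the gene whose difference was nearly the same at both days. It was measured at 116, 108, 108 and 105 CPM in defeated day 21 and at 88.5, 87.9, 70.2 and 94.2 CPM in control day 21. Day 1 gave 107, 116, 132 and 119 CPM after defeat and 82.9, 92.7, 94.1 and 80.5 CPM in controls. All defeated libraries lay above all controls at both days. The effect was 0.36 ± 0.08 at day 21 (SE, 95% interval 0.19 to 0.53, unadjusted p = 0.000177, adjusted p = 0.263 in edgeR's quasi-likelihood test over all genes) and 0.44 ± 0.08 at day 1. The interaction of -0.08 ± 0.12 has an interval of -0.32 to 0.16, so a fading as large as 0.32 is not excluded by its error. The class I histocompatibility gene H2-D1 had 34.9, 28.9, 27.5 and 33.8 CPM in defeated day 21, which overlapped the 23.5, 28.6, 26.3 and 25.5 CPM of controls. At day 1 its 39.1 to 44.2 CPM after defeat lay above the 27.1 to 31.7 CPM of controls. Its effect was 0.27 ± 0.11 at day 21 (95% interval 0.06 to 0.49, unadjusted p = 0.0155 in edgeR's quasi-likelihood test), against 0.53 ± 0.10 at day 1. The interaction of H2-D1 was -0.26 ± 0.15, with a 95% interval of -0.56 to 0.05.

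For the other higher genes apart from Map3k6, the day 21 interval included 0. Tef, another clock output factor, had 396, 363, 382 and 384 CPM in defeated day 21 and 353, 376, 351 and 392 CPM in control day 21, an effect of 0.05 ± 0.04 (95% interval -0.04 to 0.14). In defeated day 1 it had 368 to 427 CPM, above the 333 to 339 CPM of control day 1. Ptgds, the prostaglandin D2 synthase of meninges and choroid plexus, had 113 to 134 CPM in defeated day 21, overlapping 117 to 151 CPM in control day 21, and 253 to 331 CPM in defeated day 1, above 109 to 182 CPM in control day 1. In that gene the day 21 effect was -0.12 ± 0.17 (95% interval -0.47 to 0.23). It was highest in defeated day 1, the group in which all 4 libraries were high in Ttr. The Ptgds ranges of the other groups include the libraries with 622, 640 and 982 CPM of Ttr. The Ptgds interaction was -1.02 ± 0.24, and it lay between -1.11 and -0.81 over 26 alternative settings, marker scores as covariates among them. The part of choroid plexus tissue in the result was not tested. For Arrdc2 the day 21 effect was -0.16 ± 0.14 (95% interval -0.46 to 0.13), for Fzd2 -0.17 ± 0.11 (-0.38 to 0.05) and for Adipor2 -0.06 ± 0.09 (-0.24 to 0.11). The monooxygenase gene Fmo2 gave 0.11 ± 0.29 (-0.47 to 0.69) on 20 to 48 reads a library at day 21, and the glycosyltransferase gene Galnt15 gave 0.41 ± 0.29 (-0.19 to 1.0), so for these low genes a remaining difference was not detectable at this depth and spread.

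Map3k6 was the exception to this, with an effect of -0.56 ± 0.19 at day 21 (95% interval -0.94 to -0.18, unadjusted p = 0.00534) against 1.0 ± 0.19 at day 1. It was the 1 gene of the 13 with an unadjusted p under 0.05 in the opposite direction.

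Of the 3 genes lower at day 1, the radial glia and astrocyte gene Fabp7 kept its libraries apart. It had 15.6, 17.1, 17.2 and 15.2 CPM in defeated day 21, below the 18.6, 20.6, 18.9 and 18.0 CPM of controls. The day 1 libraries had 8.30, 15, 8.49 and 11.4 CPM after defeat, below the 20.1, 15.7, 17.0 and 16.1 CPM of controls. The day 21 effect was -0.22 ± 0.13 (95% interval -0.5 to 0.05), against -0.67 ± 0.13 at day 1. The matrix metalloproteinase gene Mmp14 overlapped at day 21, with 8.45 to 10.2 CPM after defeat and 9.25 to 11.1 CPM in controls, while at day 1 it had 7.39 to 8.48 CPM after defeat and 11.5 to 12.3 CPM in controls. The adhesion receptor gene Adgrd1 likewise had 5.12 to 5.55 CPM in defeated day 21 and 5.11 to 5.88 CPM in control day 21, against 2.73 to 3.64 CPM in defeated day 1 and 5.10 to 6.18 CPM in control day 1. Their day 21 effects were -0.08 ± 0.10 and -0.06 ± 0.14, and their interactions of 0.47 ± 0.14 and 0.68 ± 0.20 did not pass (adjusted p = 0.679 and 0.7 in edgeR's quasi-likelihood test).

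The larger set of 1772 genes with an unadjusted p under 0.05 at day 1 (7.45% of those tested) gave the same picture. At day 21, 1095 of them (61.8%) had the same sign, beside 54% of all tested genes. Only 124 (7.0%) had the same sign with an unadjusted p under 0.05, beside 3.48% of all genes, and 33 (1.86%) had the opposite sign, beside 2.25%. Across all genes 5.72% had an unadjusted p under 0.05 at day 21. The day 21 p-values share their estimate of the spread with the day 1 p-values that chose the genes. The median effect in the direction of day 1 was 0.03 at day 21 against 0.29 at day 1, and among the 524 genes with a log2 change of at least 0.5 it was 0.08 at day 21 against 0.88 at day 1. The estimates at day 1 chose the genes and are therefore on average too large, while those at day 21 are not. The 61.8% became 55.8% with no filter on low counts, 58.5% with a choroid plexus score in the model, 57.4% without the 3 libraries of high Ttr, and 78.7% with choroid plexus, endothelial, meningeal and red cell scores as covariates.

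Full reversals were few. Of all tested genes, 628 (2.64%) had every defeated library above every control at day 1 and 461 (1.94%) had every defeated library below every control at day 21. In 8 genes (0.0336%) both held: Map3k6, Tsc22d3, Fkbp5, the lipase gene Pnpla2, the lactase gene Lct, the cilia gene Cfap298, and Mir8099-2 and G630022F23Rik. In 6 genes (0.0252%) the order was the other way, below at day 1 and above at day 21, among them Dusp7, a phosphatase that switches off mitogen-activated protein kinases, with 58.5 to 63.2 CPM in defeated and 54.7 to 57.9 CPM in control day 21, and 53.7 to 61.7 CPM in defeated and 62.2 to 68.9 CPM in control day 1. Another 26 genes (0.109%) lay above at both days and 16 (0.0673%) below at both. Pnpla2, Lct, Cfap298, Mir8099-2 and G630022F23Rik were named after their values were seen.

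Glucocorticoid response genes had negative interactions throughout, by estimate. Of the 24 genes of that list, all 24 had an interaction below 0, with a median of -0.56 on the log2 scale, beside a median of 0.01 over all tested genes, of which 48.6% lay below 0. In 14 of the 24 the unadjusted p was under 0.05 in the lower direction, beside 2.77% of all genes, and 4.97% of all genes in either direction. None passed over all genes in edgeR's quasi-likelihood test, while DESeq2 called 3 of them, Tsc22d3, Sult1a1 and Plin4. At day 1 the list had a median effect of 0.36, with 23 genes above 0 and 15 with an unadjusted p under 0.05 in the higher direction, beside 4.24% of all genes. At day 21 the median was -0.19, with 21 genes below 0 and 6 with an unadjusted p under 0.05 in the lower direction, beside 2.99% of all genes. Those 6 were Tsc22d3, Sult1a1, Plin4, Hif3a, the gap junction gene Gjb6 (-0.31 ± 0.10) and the phagocytic receptor gene Mertk (-0.28 ± 0.13).

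**Figure D3:**
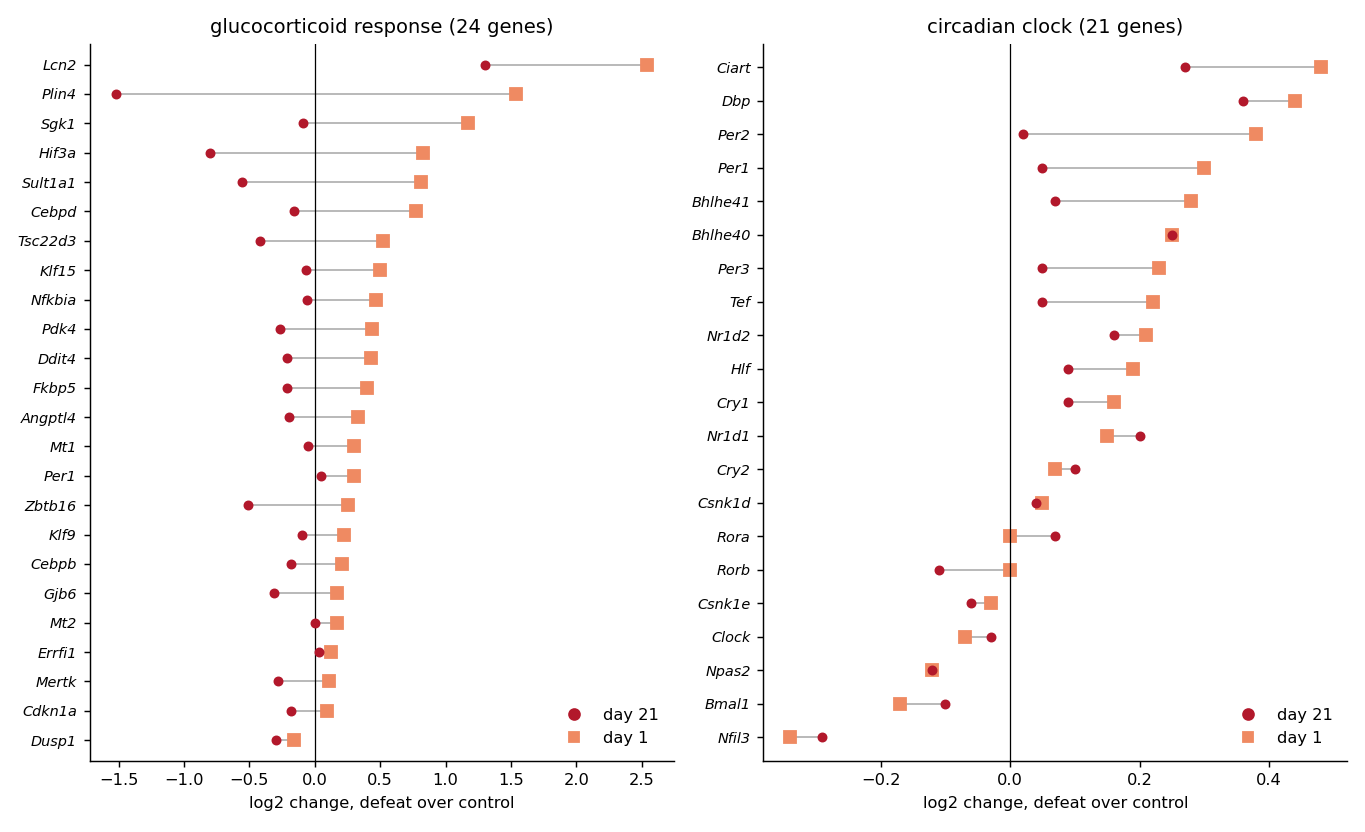
Effect of defeat (x axis, log2 change, defeated minus control) at day 21 and at day 1 for each gene of the glucocorticoid response list (24 genes) and the circadian clock list (21 genes), joined by a line. In the glucocorticoid list every day 21 point lies to the left of its day 1 point, while Dbp, Bhlhe40 and Nr1d1 of the clock list keep similar positive values.

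Within each treatment group the list also differed between the days, by estimate. Between day 1 and day 21, all 24 genes were lower at day 21 in defeated animals by estimate, with a median of -0.40 and 17 with an unadjusted p under 0.05, beside 5.93% of all genes. In controls 17 of the 24 were higher at day 21, with a median of 0.11 and 6 with an unadjusted p under 0.05, beside 5.69% of all genes. Sgk1 stood at 61.5, 49.1, 65.8 and 73.2 CPM in defeated day 21 and at 53.1, 58.7, 66.6 and 87.5 CPM in control day 21, and at 133, 134, 161 and 198 CPM in defeated day 1 against 40.7, 54.9, 78.2 and 104 CPM in control day 1. The defeated day 1 libraries stood above all the others. Sgk1 was lower at day 21 than at day 1 by 1.33 ± 0.29 in defeated animals (adjusted p = 0.0259 with edgeR's quasi-likelihood test with Benjamini-Hochberg adjustment). In controls it differed by -0.06 ± 0.28, and its interaction was -1.26 ± 0.40 (adjusted p = 0.881 by the same test).

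Fkbp5 had smaller differences that changed side. It was at 41.6, 39.7, 38.1 and 39.9 CPM in defeated day 21 and at 43.0, 49.6, 42.3 and 48.7 CPM in control day 21. In day 1 libraries it was at 52.1, 41.3, 42.1 and 62.8 CPM after defeat and at 36.1, 40.2, 36.3 and 37.2 CPM in controls. Neither day's groups overlapped. The effect was -0.21 ± 0.11 at day 21 (95% interval -0.43 to 0.02) and 0.40 ± 0.11 at day 1, and the interaction was -0.61 ± 0.15 (unadjusted p = 0.000396, adjusted p = 0.447 in edgeR's quasi-likelihood test).

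Other targets followed the list by estimate. The transcription factor genes Klf15 and Klf9 had day 21 effects of -0.07 and -0.10 against 0.50 and 0.22 at day 1, and the pyruvate dehydrogenase kinase gene Pdk4, a brake on glucose oxidation, had -0.27 against 0.44. Cebpd, an inflammatory transcription factor gene, had -0.16 at day 21 against 0.77 at day 1, and the growth-inhibiting gene Ddit4 had -0.21 against 0.43. Dusp1, an immediate phosphatase target of the receptor, was below 0 at both days, at -0.30 and -0.16, and was the only list gene below 0 at day 1. The receptor gene Nr3c1 itself stood at 70.6 to 77.8 CPM in defeated day 21, overlapping 62.0 to 72.1 CPM in control day 21, and at 71.4 to 74.7 CPM in defeated day 1, overlapping 72.2 to 78.9 CPM in control day 1. Of the 8 genes for corticosteroid receptors and their co-chaperones, 2 had an unadjusted p under 0.05 for the interaction, Fkbp5 and the co-chaperone gene Fkbp4 (-0.17 ± 0.07). Both were in the lower direction, beside 2.77% of all genes, and the list median was 0.07.

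Libraries of a group differed in this list. Its mean log2 CPM was 4.11, 3.95, 4.0 and 4.29 in defeated day 21 and 4.08, 4.31, 4.38 and 4.47 in control day 21. At day 1 it was 4.79, 4.37, 4.54 and 5.05 after defeat and 4.24, 4.19, 4.12 and 4.03 in controls. Defeated day 1 replicate 4 was the highest of its group for 18 of the 24 genes and replicate 2 the lowest for 17. Without replicate 4 the interaction median was -0.46, with 24 genes below 0 and 13 with an unadjusted p under 0.05. In the 26 alternative settings the interaction median lay between -0.65 and -0.43, with 22 to 24 genes below 0 and 13 to 17 with an unadjusted p under 0.05. Choroid plexus markers moved with the same groups: summed over 17 genes, none of which was at 0 in any group, they lay at 173 to 1220 CPM (median 217) in defeated day 21, 173 to 1020 (205) in control day 21, 1590 to 2170 (1860) in defeated day 1 and 205 to 1860 (281) in control day 1. Since all 4 defeated day 1 libraries were high in Ttr, leaving out libraries cannot separate these markers from that group. With scores of choroid plexus, endothelium, meninges and red cells as covariates the interaction median was -0.43, and the day 1 median was 0.23 with 4 genes at an unadjusted p under 0.05 in place of 15.

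The promoters of these genes are shown beside that of Map3k6 because receptor targets and clock genes are known through short elements in their promoters. Sequences are RefSeq, build GRCm38.p6, 250 bases before to 50 after an annotated start, read 5′ to 3′ on the gene's strand, and 21 of the 24 glucocorticoid genes, 17 of the 21 clock genes and 11 of the 13 day 1 genes had an entry. The motifs searched on both strands were the E-box CACGTG, the D-box TTATGTAA or TTACGTAA, the cAMP response element TGACGTCA, the full glucocorticoid element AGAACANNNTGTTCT, and its single arm AGAACA, which also lies inside the full element. Capitals mark the full element in Sgk1 (chr10:21993640-21993939, plus strand, starting 189 bases before the start), the single arm in Tsc22d3 (chrX:140600473-140600772, minus strand, 185 bases before), and the E-box in Per1 (chr11:69098699-69098998, plus strand, 166 bases before) and in Tef (chr15:81802423-81802722, plus strand, 127 bases before). Map3k6 (chr4:133240568-133240867, plus strand) held none of the 5 motifs, which says only that these letters are not in this window.
Map3k6: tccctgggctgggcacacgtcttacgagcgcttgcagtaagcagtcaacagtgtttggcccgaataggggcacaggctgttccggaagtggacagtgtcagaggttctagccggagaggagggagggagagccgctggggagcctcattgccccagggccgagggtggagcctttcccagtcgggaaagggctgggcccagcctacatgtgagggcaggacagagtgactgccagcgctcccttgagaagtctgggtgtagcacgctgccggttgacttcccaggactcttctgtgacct
Sgk1: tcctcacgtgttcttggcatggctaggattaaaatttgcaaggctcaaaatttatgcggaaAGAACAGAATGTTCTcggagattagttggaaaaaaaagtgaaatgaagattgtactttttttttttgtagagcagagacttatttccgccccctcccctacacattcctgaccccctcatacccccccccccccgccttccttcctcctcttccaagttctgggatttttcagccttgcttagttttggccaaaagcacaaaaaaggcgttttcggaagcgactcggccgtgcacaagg
Tsc22d3: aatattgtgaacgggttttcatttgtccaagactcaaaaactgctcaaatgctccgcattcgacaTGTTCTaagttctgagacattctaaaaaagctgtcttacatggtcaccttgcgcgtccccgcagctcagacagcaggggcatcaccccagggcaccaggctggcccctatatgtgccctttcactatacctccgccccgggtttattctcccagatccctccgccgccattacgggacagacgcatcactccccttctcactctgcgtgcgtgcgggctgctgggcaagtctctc
Per1: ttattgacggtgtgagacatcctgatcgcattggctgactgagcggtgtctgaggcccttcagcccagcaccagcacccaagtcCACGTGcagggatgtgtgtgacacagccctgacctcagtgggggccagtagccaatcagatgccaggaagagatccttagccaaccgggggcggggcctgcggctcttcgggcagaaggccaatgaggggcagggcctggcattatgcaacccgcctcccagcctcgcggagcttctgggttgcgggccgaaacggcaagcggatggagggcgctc
Tef: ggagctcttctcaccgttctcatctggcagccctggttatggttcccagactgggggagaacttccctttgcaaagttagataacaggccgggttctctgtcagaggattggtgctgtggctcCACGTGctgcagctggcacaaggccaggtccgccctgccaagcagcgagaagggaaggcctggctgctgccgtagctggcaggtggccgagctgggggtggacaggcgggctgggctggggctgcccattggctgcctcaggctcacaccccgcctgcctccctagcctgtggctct

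The full glucocorticoid element occurred in 3 of the 32851 promoters searched (0.00913%), and 1 of the 3 was that Sgk1 promoter, of 6 annotated for the gene. Promoters on chromosome 18 were not searched, so shares of all promoters leave that chromosome out. The single arm was in 5 of 31 promoters of the list (16.1%), those of Sgk1, Sult1a1 and Tsc22d3, beside 19.0% of all promoters. E-boxes were in 5 of 31 (16.1%), beside 7.15% of all, in Dusp1, Fkbp5, Klf15, Per1 and Sgk1. In the clock list 6 of 25 promoters (24%) held an E-box, in Bhlhe41, Ciart, Cry1, Per1 and Tef. The cAMP element was in 2 glucocorticoid list promoters (6.45%), of Dusp1 and the receptor inhibitor gene Errfi1, beside 1.79% of all. The D-box was in none of that list and in 1 clock promoter (4.0%), of Per3, beside 1.06% of all. Among 13 promoters of the day 1 genes, 2 (15.4%) held an E-box, both of Tef, and 2 (15.4%) the single arm, of Fmo2 and Tef. The D-box was in 1 (7.69%), of Ptgds, and the cAMP and full glucocorticoid elements were in none. These matches are descriptions of sequence and not evidence of binding.

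Clock genes were split between differences that were similar at both days and differences seen at day 1. Of the 21 clock genes, 11 had an unadjusted p under 0.05 in the higher direction at day 1, beside 4.24% of all genes. In the lower direction there were 2, beside 3.21% of all genes, and the day 1 median was 0.16. At day 21, 6 had one in the higher direction, beside 2.73% of all genes, and 1 in the lower, beside 2.99%. The day 21 median was 0.05. The interaction had a median of -0.05, with 15 genes below 0, beside 48.6% of all genes. An unadjusted p under 0.05 was found for 2 genes, Per2 and Tef, both in the lower direction, beside 2.77% of all genes. None of the 21 passed over all genes in the interaction, with edgeR or with DESeq2.

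Similar at both days by estimate were Dbp, the repressor gene Bhlhe40 (0.25 at day 21 and 0.25 at day 1), the Rev-erb genes Nr1d1 (0.20 and 0.15) and Nr1d2 (0.16 and 0.21), and the cryptochrome gene Cry2 (0.10 and 0.07). Ciart, a repressor of Clock and Bmal1, had 0.27 ± 0.10 at day 21 and 0.48 ± 0.10 at day 1. On the other side of 0, Nfil3, which opposes Dbp at the same D-box sites, had -0.29 ± 0.12 at day 21 and -0.34 ± 0.12 at day 1. The period genes had values near 0 at day 21. Per2 stood at 43.2, 44.4, 44.1 and 48.8 CPM in defeated day 21 and at 42.9, 37.6, 47.9 and 49.6 CPM in control day 21. Day 1 levels were 38.8, 41.1, 44.4 and 56.0 CPM after defeat and 31.5, 35.4, 31.9 and 39.5 CPM in controls, where 1 defeated library fell within the range of the controls. The effect was 0.02 ± 0.09 at day 21 and 0.38 ± 0.09 at day 1 (interaction -0.36 ± 0.13, adjusted p = 0.883 in edgeR's quasi-likelihood test). Per1 had 0.05 at day 21 against 0.30 at day 1, and Per3 0.05 against 0.23. The sources used here do not give the time of day at which tissue was taken.

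Immediate early genes, which neurons switch on within minutes of activity, were below 0 in 32 of 35 at day 1, beside 51.0% of all genes. Of the 35, 11 had an unadjusted p under 0.05 in the lower direction at day 1, beside 3.21% of all genes, with a median of -0.19. That count of 11 was 5 with the choroid plexus score in the model, 0 with the 4 marker scores, and 0 to 19 over 18 settings, the highest without control day 1 replicate 1. It was 5 without control day 1 replicate 3 or 4 or defeated day 1 replicate 1, and 6 without defeated day 1 replicate 4. At day 21 there were 3 in the lower direction (Fosl2, Trib1 and Crem), beside 2.99% of all genes, with a median of -0.15. The interaction median was 0.10, with 1 gene at an unadjusted p under 0.05 in the higher direction, beside 2.2% of all genes. In the lower direction there were 2, beside 2.77% of all genes: the stress factor gene Maff (-1.14 ± 0.47) and the kinase regulator gene Trib1 (-0.44 ± 0.19). The gene in the higher direction was Bdnf, a neurotrophin induced by activity, with 23.5, 25.1, 25.0 and 28.1 CPM in defeated day 21 and 25.3, 21.6, 29.7 and 25.2 CPM in control day 21. Bdnf on day 1 had 21.4, 19.9, 18.7 and 16.4 CPM after defeat, all below the 25.6, 27, 25.6 and 28 CPM of controls. Its interaction of 0.48 ± 0.20 did not pass (adjusted p = 0.922 in edgeR's quasi-likelihood test). Npas4, a neuronal activity factor, had -0.24 ± 0.19 at day 21 against -0.69 ± 0.19 at day 1. Fos, Arc, Egr1 and Crh, the gene of corticotropin-releasing hormone, overlapped between defeated and control libraries at both days.

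Translation and respiration genes showed small shifts of many members. Of 77 cytosolic ribosomal protein genes, 71 had an interaction below 0, beside 48.6% of all genes, with a median of -0.14 and 17 with an unadjusted p under 0.05 in the lower direction, beside 2.77% of all genes, among them Rps18 (-0.31 ± 0.09), Rpl23 (-0.27 ± 0.09) and Rpl35a (-0.46 ± 0.15). Their median effect was 0.0 at day 21 and 0.12 at day 1, where 37 had an unadjusted p under 0.05 in the higher direction, beside 4.24% of all genes. In controls 76 of the 77 were higher at day 21 than at day 1 by estimate, with a median of 0.13, and in defeated animals 42 were, with a median of 0.01. With the 4 marker scores as covariates 1 of the 77 had an unadjusted p under 0.05 in the higher direction at day 1, and without defeated day 1 replicate 4 there were 22 at day 1 and 9 lower in the interaction. Of 60 nuclear genes of oxidative phosphorylation, 43 had an interaction below 0, beside 48.6% of all genes, with a median of -0.08. In the lower direction 18 had an unadjusted p under 0.05, beside 2.77% of all genes. Among them were Ndufs5 of complex I (-0.34 ± 0.11) and Cox7c of complex IV (-0.35 ± 0.13). That count of 18 lay between 7 and 25 over the alternative settings. At day 1, 28 had an unadjusted p under 0.05 in the higher direction, beside 4.24% of all genes. With the 4 marker scores those 28 became 3. No member of either list passed over all genes in the interaction, with edgeR or with DESeq2. Ribosomal protein genes have many near-identical pseudogenes, and how reads shared with them were counted is not given, so single members are uncertain.

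**Figure D4:**
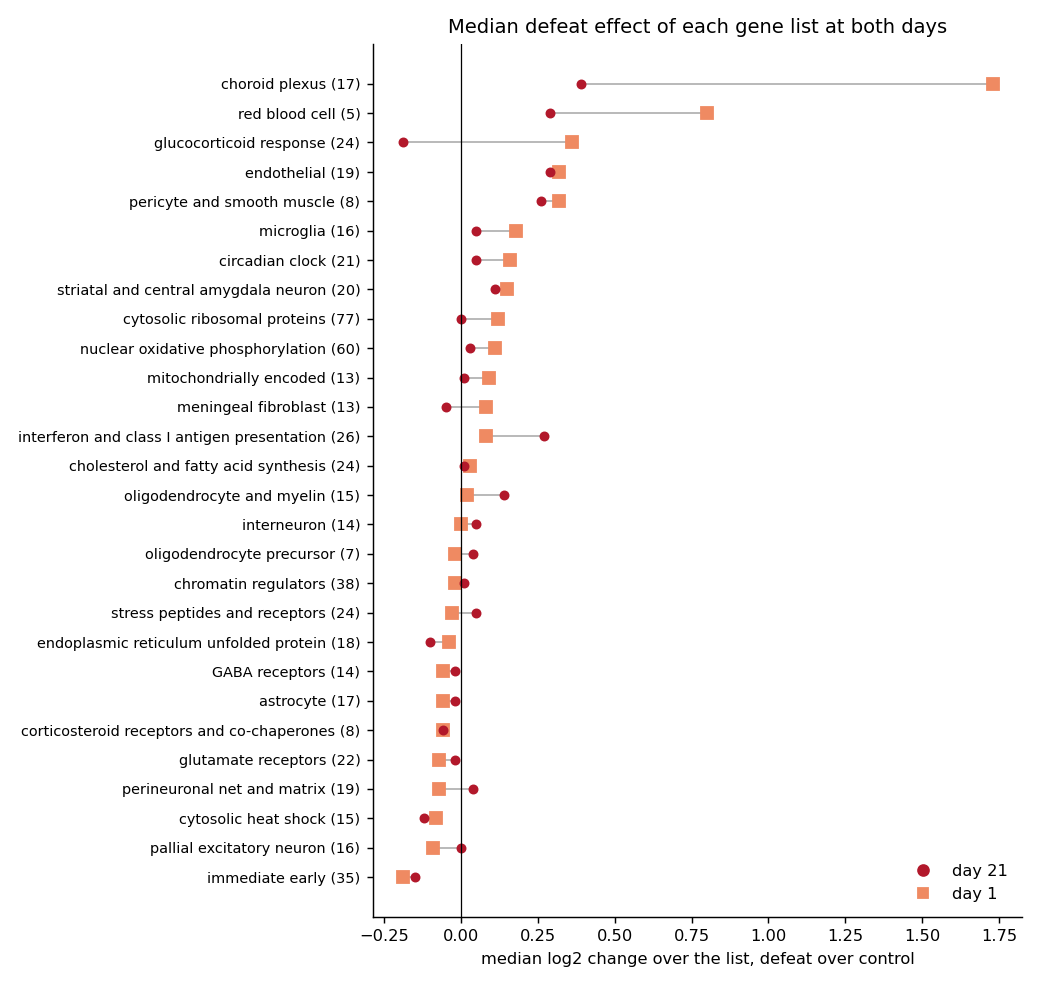
Median effect of defeat (x axis, log2 change, defeated minus control) at day 21 and at day 1 for each of the 28 gene lists. Lines join the days of each list. The choroid plexus list lies at 0.39 at day 21 and at 1.73 at day 1, and the glucocorticoid list at -0.19 and 0.36.

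Genes of the endoplasmic reticulum unfolded protein response encode chaperones and disulfide isomerases that fold secreted proteins, and several separated the groups at day 21. Hspa5, the main chaperone of the endoplasmic reticulum, had 243, 234, 224 and 215 CPM in defeated day 21, all below the 280, 282, 268 and 308 CPM of controls. At day 1 it had 203, 187, 182 and 199 CPM after defeat, overlapping the 182, 210, 213 and 206 CPM of controls. The effect was -0.31 ± 0.08 at day 21 and -0.07 ± 0.08 at day 1. The isomerase gene Pdia4 had 27.3 to 30.3 CPM in defeated day 21, below the 34.3 to 38.9 CPM of controls, and 27.9 to 33.7 CPM in defeated day 1, overlapping 24.9 to 32.2 CPM in control day 1 (interaction -0.43 ± 0.13). Of the 18 genes, 17 were below 0 at day 21, beside 49.1% of all genes. At that day 7 had an unadjusted p under 0.05 in the lower direction, beside 2.99% of all genes. In those 7 all defeated libraries lay below all controls, which held for 1.94% of all genes. The list's interaction median was -0.15, with 4 at an unadjusted p under 0.05 in the lower direction, beside 2.77% of all genes. In controls 12 of the 18 had an unadjusted p under 0.05 in the direction of higher at day 21 than at day 1, beside 5.69% of all genes. No gene of this list passed over all genes in the interaction, with edgeR or with DESeq2. Cytosolic heat shock genes were below 0 at day 21 in all 15, beside the same 49.1% of all genes, with a median of -0.12. In the lower direction 4 had an unadjusted p under 0.05, beside the same 2.99%, and their interaction median was -0.04.

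Interferon response and antigen presentation genes were above 0 at day 21 in 23 of 26, beside 50.9% of all genes, with a median of 0.27 and 7 with an unadjusted p under 0.05 in the higher direction, beside 2.73% of all genes, against a median of 0.08 at day 1. Ifit1, an interferon-induced gene that binds viral RNA, had 1.16, 1.75, 1.57 and 1.09 CPM in defeated day 21, above the 0.668, 0.779, 0.630 and 0.761 CPM of controls. Ifit1 on day 1 had 1.20, 1.41, 1.22 and 1.34 CPM after defeat, within the range of the 0.943, 0.952, 1.72 and 3.11 CPM of controls, of which replicate 4 was the highest. Its interaction was 1.34 ± 0.39. Endothelial markers had positive effects at both days, with a median of 0.29 at day 21 and 0.32 at day 1, 8 of 19 at an unadjusted p under 0.05 in the higher direction at each day, beside 2.73% of all genes at day 21 and 4.24% at day 1, and an interaction median of -0.01. The von Willebrand factor gene Vwf had 0.71 ± 0.24 at day 21 and 1.09 ± 0.24 at day 1. Slc2a1, the glucose transporter of the blood-brain barrier, had -0.02 ± 0.13 at day 21 and 0.58 ± 0.13 at day 1, with 59.8 to 76.7 CPM in defeated and 64.9 to 74.6 CPM in control day 21, and 79.6 to 126 CPM in defeated and 56.5 to 70.3 CPM in control day 1.

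**Figure D5:**
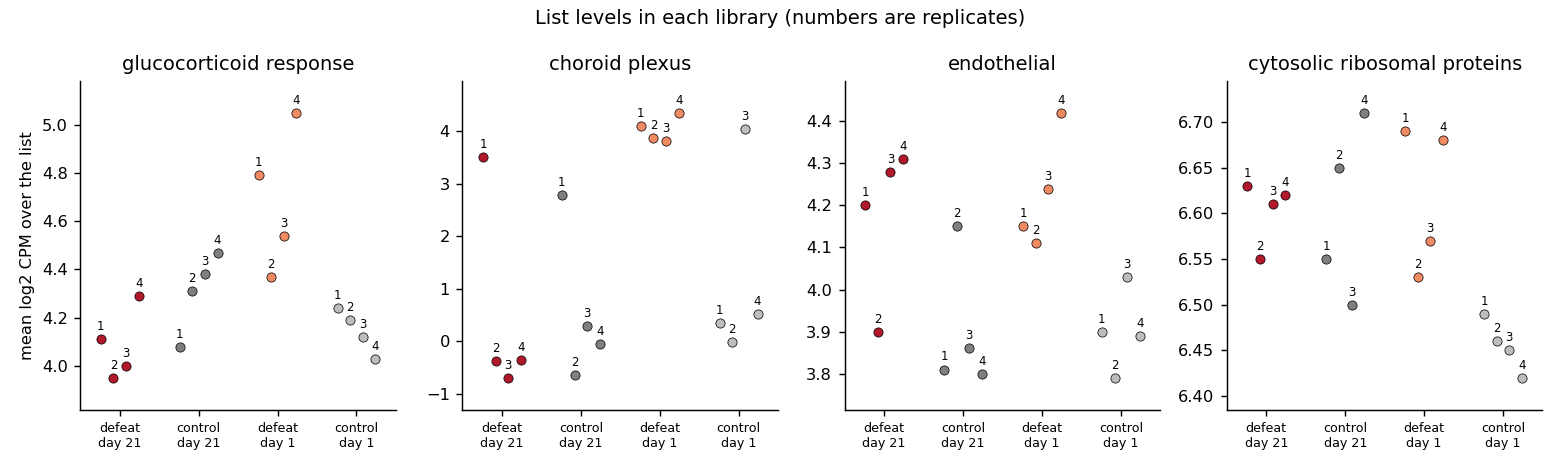
Mean log2 CPM of gene lists in each of the 16 libraries (y axis), by group, with replicate numbers as point labels. The choroid plexus list is near 4 in all defeated day 1 libraries and in 1 control day 1 library, and the glucocorticoid list is highest in defeated day 1.

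Markers of choroid plexus and blood had the most negative interactions among the cell types. The 5 tested red blood cell genes had an interaction median of -0.39, all 5 below 0, beside 48.6% of all genes. Their median effect was 0.29 at day 21 and 0.80 at day 1. All 17 choroid plexus genes had an interaction below 0, beside the same 48.6%, with a median of -0.97 and none at an unadjusted p under 0.05. With single libraries left out the choroid plexus median lay between -3.09 and 0.35, so its sign depended on single libraries. Elsewhere the medians of the interaction were -0.08 for 8 pericyte and smooth muscle, 13 meningeal fibroblast and 16 microglia genes, 0.04 for 17 astrocyte genes, 0.12 for 15 myelin genes and -0.07 for 20 striatal and central amygdala genes. For receptors and plasticity genes they were 0.04 for 22 glutamate receptor, 0.05 for 14 GABA receptor, 0.06 for 19 perineuronal net and 0.06 for 24 stress peptide genes. For the remaining lists they were 0.09 for 16 pallial excitatory neuron, 0.03 for 14 interneuron, 0.04 for 7 oligodendrocyte precursor, 0.03 for 38 chromatin regulator, 0.0 for 24 cholesterol and fatty acid synthesis and -0.08 for 13 mitochondrially encoded genes. Among single members, Hapln1, a link protein of perineuronal nets, had an interaction of 0.35 ± 0.12, the DNA methyltransferase gene Dnmt3a 0.25 ± 0.08, and the astrocyte water channel gene Aqp4 0.35 ± 0.13, with unadjusted p under 0.05 each.

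No gene passed with edgeR with a positive interaction, which means a higher level after defeat, relative to controls, at day 21 than at day 1. There were 523 with an unadjusted p under 0.05, and DESeq2 called 2. The lowest p belonged to Cd300ld3, a receptor gene of myeloid cells, with 11, 10, 19 and 8 reads in defeated day 21, 0 reads in all control day 21 libraries, 6, 6, 7 and 5 reads in defeated day 1 and 5, 16, 15 and 10 reads in control day 1. A control group at 0 in all 4 libraries makes the fitted interaction depend on the prior count, so no fold is given. The RNA helicase gene Ddx21, which acts in ribosome production, was at 26.4, 26.8, 25.6 and 27.2 CPM in defeated day 21, above the 21.6, 20.8, 21.3 and 19.6 CPM of controls. At day 1 it was at 22.2, 25.7, 25.4 and 26.2 CPM after defeat, overlapping the 24.8, 23.5, 26 and 24.2 CPM of controls. The level of Ddx21 was lower at day 21 than at day 1 in controls, by 0.24 ± 0.06 (adjusted p = 0.0438 with edgeR's quasi-likelihood test). It differed by 0.09 in defeated animals. Ddx21 is 1 of 3 genes called at day 21 (0.0126% of those tested), and its interaction was 0.33 ± 0.08 (adjusted p = 0.455 by the same test).

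Genes of signalling and neuropeptides were also among the positive interactions. Vipr1, a receptor of vasoactive intestinal peptide, stood at 30.6, 30.6, 31.5 and 32 CPM in defeated day 21, above the 22.4, 25.2, 26.6 and 28.5 CPM of controls, and its day 1 values lay between 28.8 and 30.4 CPM in both groups. Reln, the extracellular signal reelin made by interneurons, stood at 65.5, 53.7, 56.6 and 58.4 CPM in defeated day 21, above the 49.6, 51.6, 43.5 and 39.9 CPM of controls. Reln on day 1 stood at 46.4, 59.3, 45.7 and 47.4 CPM after defeat, overlapping the 50.3, 59.5, 61.9 and 53.7 CPM of controls. Nts, the neuropeptide neurotensin, stood at 34.1, 28.4, 31.7 and 19.3 CPM in defeated day 21, overlapping the 19.8, 25.5, 19.4 and 22.9 CPM of controls, and at 13.9, 19.2, 13.6 and 15.6 CPM in defeated day 1, below the 19.4, 20, 22.8 and 20.3 CPM of controls. Nts was higher at day 21 than at day 1 in defeated animals, by 0.87 ± 0.15 (adjusted p = 0.00583 with edgeR's quasi-likelihood test). In Smurf1, a ubiquitin ligase gene, controls differed between the days by -0.32 ± 0.04 (adjusted p = 0.00052 by the same test) and defeated animals by -0.07. The interactions were 0.32 ± 0.09 for Vipr1, 0.53 ± 0.13 for Reln, 0.78 ± 0.21 for Nts and 0.25 ± 0.06 for Smurf1, with adjusted p between 0.409 and 0.591 in edgeR's quasi-likelihood test.

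Set beside adults, the same contrast took other values for several of these genes. The adult interaction had 148 calls (0.622% of those tested with edgeR's quasi-likelihood test), 30 higher and 118 lower, and the difference between the adolescent and adult interactions was called for 25 genes (0.105%). Plin4 (-3.06 ± 0.61 in adolescents and 1.54 ± 0.59 in adults; difference -4.6 ± 0.85, adjusted p = 0.0304), Sult1a1 (-1.37 ± 0.28 and 0.60 ± 0.28; difference -1.97 ± 0.40, adjusted p = 0.0328) and Fkbp5 (-0.61 ± 0.15 and 0.51 ± 0.15; difference -1.12 ± 0.22, adjusted p = 0.0304) differed between the age classes with edgeR's quasi-likelihood test. Dusp7, Vipr1 and Smurf1 differed in the other direction, by 0.60 ± 0.10, 0.71 ± 0.12 and 0.45 ± 0.09, as did the immediate early gene Egr1 by 1.36 ± 0.27, whose adolescent interaction was 0.13 ± 0.19 and adult interaction -1.23 ± 0.19. For Map3k6 the difference was -1.6 ± 0.37 and did not pass (adjusted p = 0.0749 by the same test), nor did that of Tsc22d3 at -0.98 ± 0.25 (adjusted p = 0.121). The adult median over the 24 glucocorticoid genes was 0.07, against -0.56 in adolescents. Between the age classes the fate of day 1 differences also took different values: 747 of 2261 adult genes with an unadjusted p under 0.05 at day 1 had the same sign at day 21 (33.0%), beside 45.0% of all genes tested, against the 61.8% beside 54% in adolescents. This difference in shares was not tested.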

How the data were processed

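Polyadenylated RNA of 32 libraries was sequenced, 16 of them adolescent, and groups were taken from the sample titles. The authors deposited a table of whole-number read counts and FPKM values for 40392 mouse Ensembl genes. Per the submitters' processing notes the tools, whose roles are not stated, were edgeR, StringTie 1.3.4d, HISAT2 2.0.4 and cutadapt 1.9, and the build was hg38, a human one, although the gene identifiers are mouse (37197 were found in a mouse name table). The table's build is therefore unknown: of 27673 genes matched by symbol, 841 start within 1000 bases of their GRCm38.p6 start. The use of strand in counting is not given in the sources at hand.

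All 32 libraries were fitted as 8 group means in edgeR 4.0.16 (R 4.3.3) with TMM scaling. Its default expression filter kept 23778 genes, which hold 99.975% of the counts. Contrasts were tested by the quasi-likelihood F test, 2-sided, with 24 residual degrees of freedom and Benjamini-Hochberg adjustment over all 23778 genes, at a threshold of 0.05. An SE was obtained by dividing the size of the log2 change by the root of its F statistic. CPM values use the TMM factors. Defeated and control animals at day 21 share no library with those at day 1. Alternatives were other scalings and filters, DESeq2 1.42.0, limma 3.58.1 on log2(FPKM + 1) and log2(FPKM + 0.1) of the deposited FPKM, marker scores as covariates, and each library left out. The fits were tested on simulated counts.

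The genes named were those past the threshold in an adolescent contrast, the 10 smallest p-values in each direction of the interaction, at most 4 members of each of the 28 lists with an unadjusted interaction p under 0.05, and a set of stress, clock and activity genes. Further list members named with their values were chosen after those were seen. The contrast, the lists and this rule were chosen with earlier results of these data known, so lists are given as counts and medians, with no test of their own. A further named gene is not reported here.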

Additional observations from a re-analysis of the deposited data

Results flagged for a closer look

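A library was marked where its gap to the nearest of the 4 in its group took up more of the group's range than Dixon's 95% critical value allows. This held in 21 of 300 sets of 4, from 75 named genes in 4 groups, where chance marks about 1 in 20. All values are CPM. The largest such gaps by level were those of Ttr: 622 in defeated day 21 replicate 1, 640 in control day 21 replicate 1 and 982 in control day 1 replicate 3.

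Map3k6 was marked at 3.61 in defeated day 21 replicate 3, the highest of that group and still below all controls. In defeated day 1, replicate 4 stood apart for the glucose transporter gene Slc2a1 (126), the lipid transporter gene Mfsd2a (35.3), Cox7c of complex IV (77.9), the stress factor gene Maff (1.98) and the tektin gene Tekt4 (3.12). In the same group replicate 1 stood apart for Cgn (12.5) and Aqp4 (68.8), replicate 2 for Reln (59.3) and replicate 3 for Ndufs5 (30.7). In control day 1, replicate 1 stood apart for Soat1 (31.4) and the microglial gene Tmem119 (25.8), replicate 3 for Vipr1 (29.6) and Fkbp4 (105), and replicate 4 for Nr3c1 (78.9). In control day 21, replicate 1 stood apart for the neuronal gene Jakmip2 (49.0) and replicate 3 for Herpud1 (42.1), a gene of endoplasmic reticulum degradation. In defeated day 21, replicate 1 stood apart for Rps18 (67.0).

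The effect of defeat differed between day 21 and day 1 for Map3k6, at -1.56 on the log2 scale. The interaction differed between adolescents and adults, each past the threshold in edgeR's quasi-likelihood test, for Plin4 (-4.6), Sult1a1 (-1.97), Fkbp5 (-1.12), Smurf1 (0.45), Dusp7 (0.60), Vipr1 (0.71) and Egr1 (1.36). No explanation was tested for any of these.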

How the results depend on the processing

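The number of genes called in the adolescent interaction, 1, was 1 with upper quartile scaling and with a fit of only the groups compared, 0 with no filter on low counts, 0 with a choroid plexus score as covariate, 2 with 4 marker scores as covariates (Map3k6 and Fzd2), 17 with DESeq2, 0 and 0 with limma on log2(FPKM + 1) and log2(FPKM + 0.1), 311 by a fold rule (log2 change of at least 1 and unadjusted p under 0.05), and 0 without the 3 high-Ttr libraries, an alternative chosen after seeing the data. It was 0 to 8 with single libraries left out. Map3k6 stayed negative in all of these and passed in 9 of 26. The 13 calls at day 1 became 0 with no filter, 2 with the choroid plexus score, 0 with 4 scores, 0 with only the groups compared, 79 with DESeq2, 6 and 6 with limma, 224 by the fold rule, 0 without the high-Ttr libraries, and 0 to 37 with single libraries left out (37 without defeated replicate 2, 8 without replicate 3, 1 without defeated replicate 1 or control replicate 4). The 3 calls at day 21 became 0 with only the groups compared, 20 with DESeq2, 1 with limma on log2(FPKM + 1), 263 by the fold rule, 0 without the high-Ttr libraries, and 0 to 2 with single libraries left out. The adult interaction, 148, became 94 with no filter, 21 with 4 scores, 97 with only the groups compared, 295 with DESeq2, 560 by the fold rule, and 85 to 269 with single libraries left out. The difference between age classes, 25, became 4 with no filter, 50 with 4 scores, 101 with DESeq2, 43 with limma on log2(FPKM + 1), 653 by the fold rule, and 1 to 55 with single libraries left out. The cause of these shifts was not tested, except that the fold rule drops the adjustment and the omissions use fewer libraries. The share with the same sign at both days, 61.8%, was 55.8% with no filter, 58.5% with the choroid plexus score, 78.7% with 4 scores and 57.4% without the high-Ttr libraries.

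Among single genes, Arc changed the sign of its interaction (0.09) with the choroid plexus score (-0.07), 4 scores (-0.14) and without the high-Ttr libraries (-0.18), and with single libraries left out it lay between -0.17 and 0.35. Ttr lay between -7.39 (without defeated day 21 replicate 1) and 2.98 (without control day 21 replicate 1). Of the other gene values, 1910 kept their direction and side of the threshold, 17 fell below it and 21 came above it. List medians moved beyond their spread in 15 of 728 cases. Replicate numbers did not mark shared litters or days in the labels, and 4 of 24 correlations between same-numbered libraries exceeded 0.1 (range -0.212 to 0.34), so the pairing was not used. With the replicate number as a block the interaction called 2 genes, Tsc22d3 (adjusted p = 0.0132 with edgeR's quasi-likelihood test) and Map3k6 (0.0351).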
